A study of Mus musculus with 12 samples.

Results

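The 34 genes described here encode proteins of the cardiac sarcomere and its anchorage, leaving out the actins and myosins. They were chosen by symbol as genes of the thick and thin filaments, the Z-disc, the M-band and the stretch response, with no threshold on a measured value but with earlier results of these data known. They are 34 of 25319 genes in the deposited table, and all 34 passed the filter on low counts that left 14965 genes for testing. Their levels were followed in left ventricles from 12 C57BL/6 males, 3 in each of 4 groups, whose surgery was at 8 weeks and whose hearts were taken at 12 weeks of age. In TAC, short for transverse aortic constriction, the surgeon narrows the aorta with a clip set by a needle and loads the ventricle with pressure, whereas the sham operation left the vessel without a clip. In either arm 3 mice received oral dantrolene, an inhibitor of the ryanodine receptor calcium channel (a daily 30 mg per kg over 4 weeks), and 3 were controls. What the controls received in place of the drug is not stated in the labels, and neither is any measure of the constriction or of heart size.

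The sarcomere is the contractile unit of striated muscle. Thin filaments of actin, tropomyosin and troponin are anchored in the Z-disc, thick filaments of myosin are bundled at the M-band, and titin spans from one to the other as a molecular spring. The Z-disc also carries proteins that shuttle to the nucleus when the muscle is stretched, and in the loaded ventricle the re-expression of fetal isoforms and of stretch-response genes is well known.

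Totals ran from 25766378 to 38363106 reads per library, of which the 34 genes took 3.94% to 6.73%. Cardiomyocyte markers summed to 77300 to 157000 CPM (read counts scaled to the TMM-adjusted library total), fitting the labelled tissue. Atrial markers summed to at most 13.2 CPM and skeletal muscle markers to at most 8.3 CPM, with Myh4, a fast skeletal myosin, at 0 in 11 libraries. On the first principal component of log2 CPM, which held 41.7% of the variance, 1 library of each group stood apart from the other 8. They were mouse 3 of either sham group and mouse 1 of either TAC group, and each comparison below also has a fit without them. In tissue RNA, fewer cells of a type and less RNA per cell cannot be told apart. The mice are separate animals per the titles.

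Levels spread over more than 4 orders of magnitude when compared per length in FPKM (fragments per kilobase of gene, scaled to the library total). The inhibitory troponin subunit Tnni3 stood highest at a mean of 8523 FPKM over the 12 libraries (6861 to 10264), followed by the calcium-binding troponin Tnnc1 at 5193 FPKM and the tropomyosin-binding troponin Tnnt2 at 3211 FPKM. Tropomyosin Tpm1 averaged 2244 FPKM, the titin cap protein Tcap 2092 FPKM and the muscle LIM protein Csrp3 1621 FPKM. The ranges over libraries of Tnni3 and Tnnc1 did not overlap, whereas each later neighbour in this order overlapped the one before it.

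The next levels belonged to Myoz2, a calcineurin-binding Z-disc protein (874 FPKM), the intermediate filament desmin Des (835 FPKM), Fhl2 (651 FPKM), cardiac myosin-binding protein C Mybpc3 (604 FPKM), α-actinin Actn2 (425 FPKM) and the small muscle protein Smpx (243 FPKM). Ankrd1, a cardiac ankyrin repeat protein that binds titin and acts in the nucleus, averaged 122 FPKM, with 36.1 FPKM in the lowest library and 440 FPKM in the highest. Ldb3, a PDZ-LIM protein that binds α-actinin, averaged 113 FPKM and Myom2, an M-band protein of mature muscle, 91.7 FPKM. From 65.5 down to 14.998 FPKM followed the thin filament length regulators Lmod2 and Tmod1, the M-band protein Myom1, the actin-organising Nrap, the myosin chaperone Unc45b, the actin-binding Xirp1, filamin C Flnc, the LIM proteins Fhl1 and Pdlim5, Synpo2l and myopalladin Mypn. The lowest means were 9.39 FPKM for the cytoskeletal adaptor Obsl1, 8.32 for vinculin Vcl, 7.41 for Cmya5, 4.08 for palladin Palld, 2.78 for Xirp2, 1.70 for titin Ttn, 1.43 for nebulette Nebl and 0.167 for Tnni1.

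**Figure D1:**
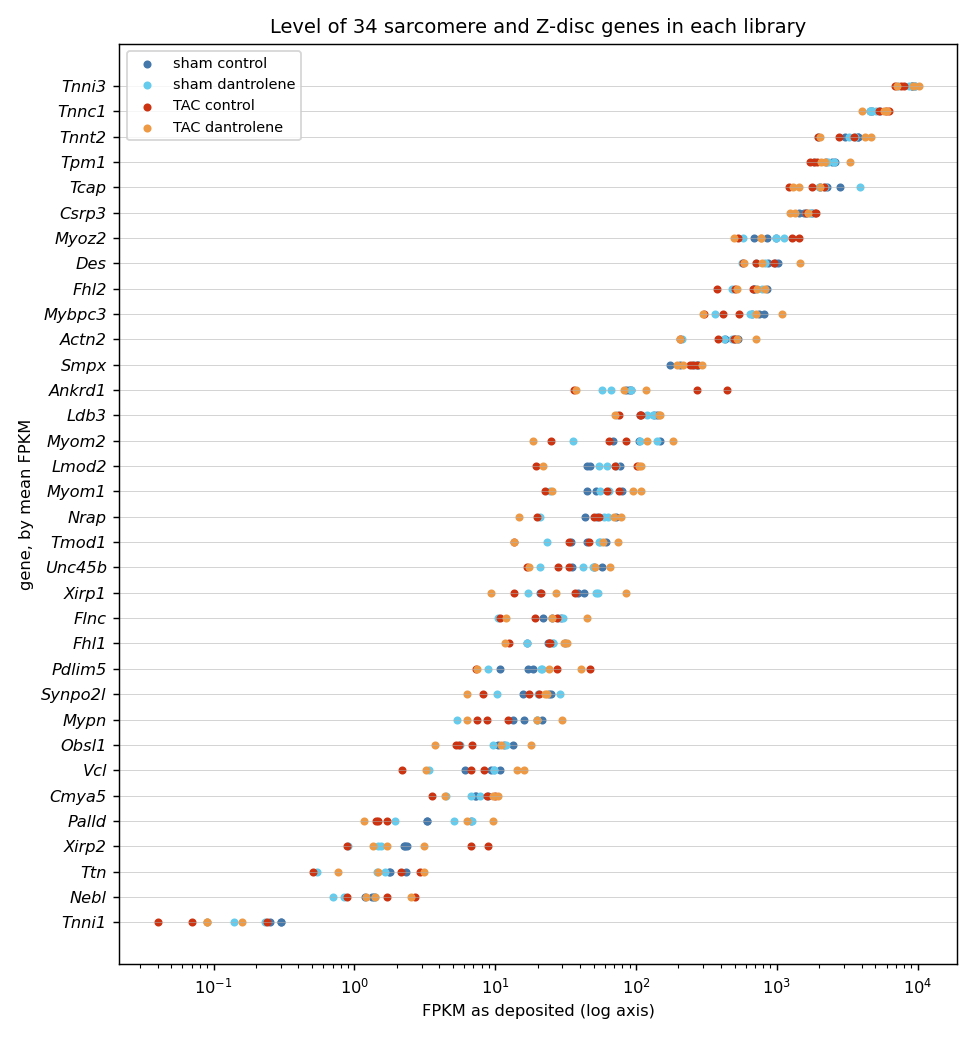
Deposited FPKM of each of the 34 genes (rows, ordered by mean) in each of 12 libraries (points, coloured by group) on a log axis. Tnni3 lies highest at a mean of 8523 FPKM and Tnni1, the slow skeletal and fetal troponin I, lowest at 0.167 FPKM.

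Ttn and Tnni1 need to be read with their counting in mind. Ttn had 83.6 to 376 CPM, which its FPKM divides by 131500 bases, the length that the deposited values imply. Flnc, of 10457 bases, had a similar mean CPM (238, against 216 for Ttn) but 23.7 FPKM. Why Ttn had so few reads per base was not tested. Tnni1 had only 2 to 15 reads in any library, and its percentile among the tested genes was 9.1, so its differences are measured from very few reads. Across the 34 genes longer ones had lower FPKM (Spearman −0.709 between length and mean FPKM, a correlation across genes, which are not independent), and the value over all genes tested was −0.35.

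The libraries apart on the first component differed from the others of their group by gene length. Of the 34 genes, 14 were lower in the apart library than in the mean of the remaining 2 in all 4 groups, 41.2% against 27.3% of all genes tested. They were Tnnt2, Fhl1, Tmod1, Actn2, Mybpc3, Unc45b, Synpo2l, Myom2, Vcl, Nrap, Myom1, Xirp1, Pdlim5 and Flnc, with lengths of 1470 to 10457 bases. The short genes Tnnc1, Tnni3 and Csrp3, of 843 to 1137 bases, were higher in all 4 (3 of 34, 8.82%, against 25.2% of all genes tested). Averaged over the groups, Myom2 differed by −1.34, Pdlim5 by −1.13 and Vcl by −1.10 (log2 CPM), while Tcap differed by 0.57 and Tnnc1 by 0.55 (log2 CPM). The Spearman correlation between length and this difference was −0.55 across the 34 genes and −0.407 across all genes tested. Among the 34 genes, longer ones thus tended to be lower in the apart library of a group, and the part of RNA quality in this was not tested.

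**Figure D2:**
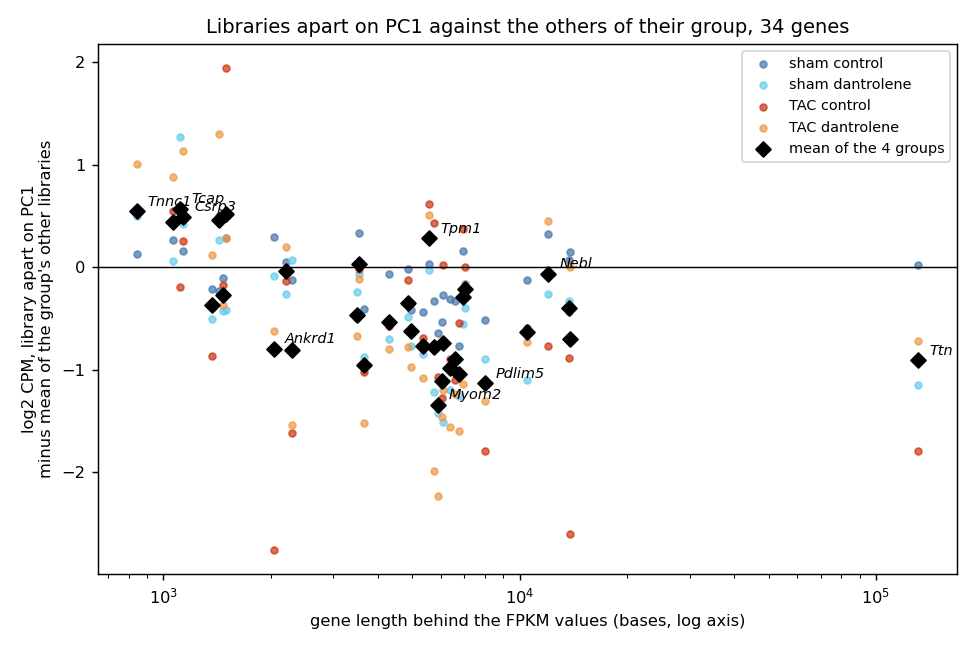
Length behind the FPKM values (x, bases, log axis) against the log2 CPM difference between the library apart on the first principal component and the mean of the other 2 libraries of its group (y), for 34 genes. Coloured points are the 4 groups and black diamonds their mean. Short genes such as Tnnc1 (0.55) tended to lie above 0 and longer ones such as Myom2 (−1.34) below. Exceptions include Lmod2 (2299 bases, −0.80) and Tpm1 (5582 bases, 0.28).

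**Figure D3:**
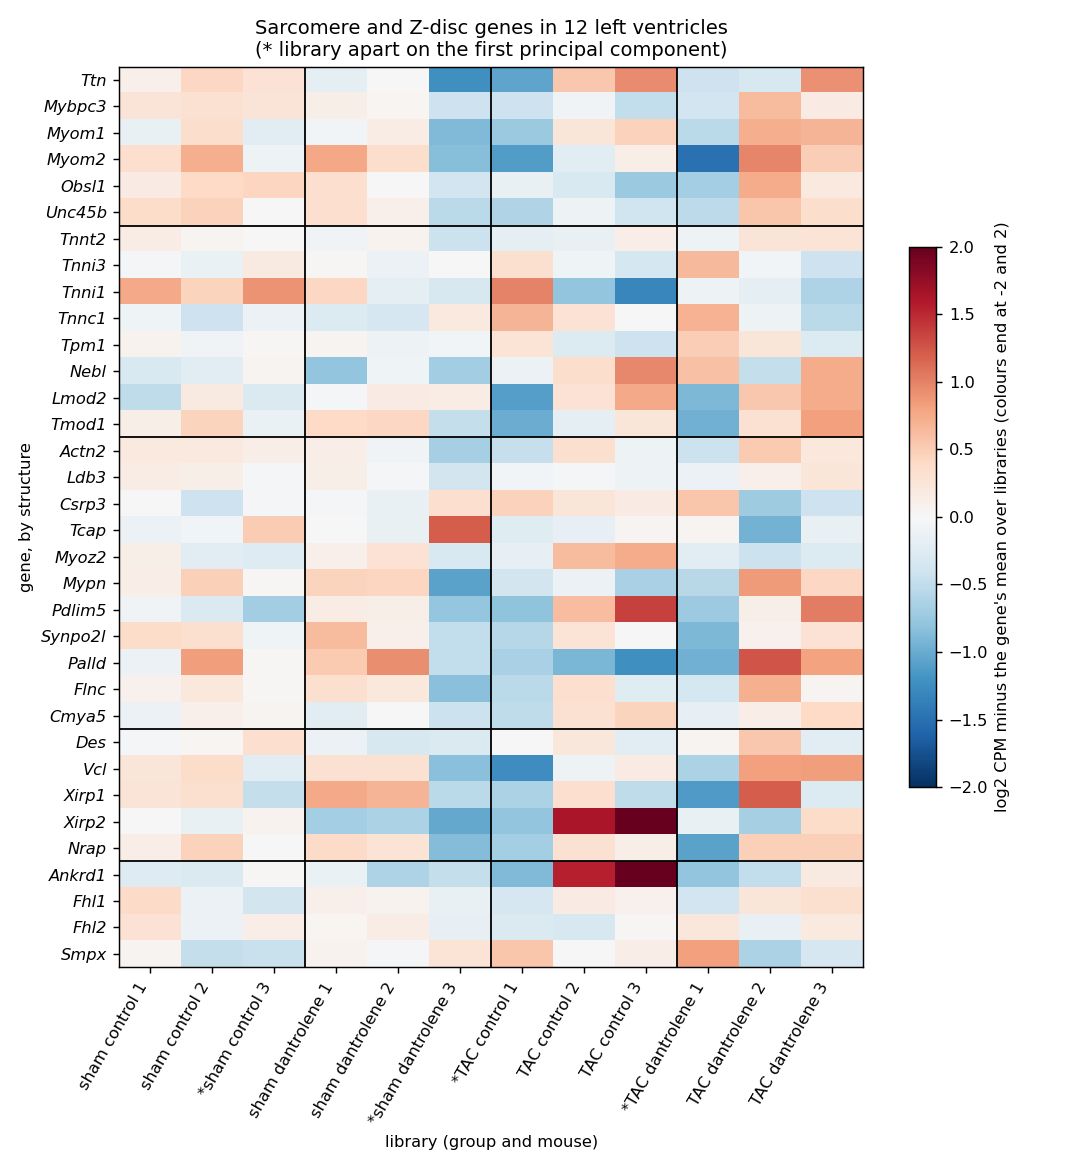
Log2 CPM of each gene minus its mean over 12 libraries (colour), with genes in rows by structure and libraries in columns by group. Asterisks mark the 4 libraries apart on the first component. Ankrd1 and Xirp2 stand out in TAC control 2 and 3, and many long genes are low in the marked columns, less so in sham control 3.

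Short stretches before a RefSeq start are shown for Ankrd1, Xirp2 and Palld because these genes have the largest differences described next. Of the 34 genes 31 matched by symbol a promoter in the RefSeq table of GRCm38.p6, with 45 windows of 300 bases (250 before to 50 after a start). Capitals mark the motif named for each stretch, searched for on both strands. Matches to the E-box CANNTG, counted below, are left in lower case. For Xirp2 the 250 bases before its start, chr2:67445752-67446001 on the plus strand, hold a single MEF2 site, named for a family of muscle transcription factors. For Ankrd1 both 30-base stretches, chr19:36120037-36120066 and chr19:36119950-36119979 on the minus strand, hold the complement of the MCAT box CATTCC, which TEAD factors bind. The Palld stretch, chr8:61760159-61760188 on the minus strand, holds an MCAT box at 1 of its 3 starts. The Ankrd1 and Palld stretches lie inside the GENCODE gene spans given below, while the Xirp2 stretch lies before its gene.
Xirp2 MEF2: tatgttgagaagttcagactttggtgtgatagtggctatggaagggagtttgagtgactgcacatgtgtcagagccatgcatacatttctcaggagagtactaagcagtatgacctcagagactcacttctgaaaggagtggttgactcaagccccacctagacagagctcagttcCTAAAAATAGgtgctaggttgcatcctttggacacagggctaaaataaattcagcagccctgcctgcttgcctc
Ankrd1 MCAT, distal: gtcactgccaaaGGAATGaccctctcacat
Ankrd1 MCAT, proximal: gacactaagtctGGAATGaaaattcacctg
Palld MCAT: ggacattagcaaCATTCCtgcccaggacac

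Of the 45 windows 11 (24.4%) held a match to the MEF2 pattern searched for, against 3.69% of all 32851 windows in the table. This pattern allowed any base at its middle positions, so it is looser than a pattern limited to A and T there. The matches of Ldb3, for example, hold a C in the middle. The CArG box, the site of serum response factor, was in 8 (17.8%, against 1.63% of all windows). The MCAT box was in 12 (26.7%, against 14.7%), the GATA site AGATAA in 8 (17.8%, against 11.2%) and the E-box CANNTG in 35 (77.8%, against 72.3%). Windows of a gene can overlap, so they are not independent, and a match of letters is a description only. Genes with a match to the MEF2 pattern included Des, Flnc, Ldb3, Mybpc3, Obsl1, Smpx, Synpo2l, Ttn and Xirp2. These genes did not share a direction under load. Xirp2 (1.38) and Smpx (0.52) had positive fitted log2 fold changes and Obsl1 (−0.72) and Mybpc3 (−0.59) negative ones.

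What pressure load changed in mice without the drug was asked by comparing TAC control with sham control. The 2 genes with the largest positive differences were Ankrd1 and Xirp2, and both were high in only 2 of 3 TAC control mice. Ankrd1 (ENSMUSG00000024803.8) lies at chr19:36111961-36120099 on the minus strand of GRCm38 in GENCODE vM21. It stood at 159, 157 and 193 CPM in sham control 1 to 3 and at 104, 560.0 and 876 CPM in TAC control 1 to 3. TAC control 2 and 3 lay above every sham control library and TAC control 1 below every one, so the groups overlapped. The means were 513 ± 388 CPM against 169.6 ± 20.4 CPM (SD, n = 3), 3.03-fold, with a fitted log2 fold change of 1.60 ± 0.56 (SE) and adjusted p = 0.529 in the quasi-likelihood test of edgeR.

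Xirp2, an actin-binding protein of the intercalated disc and Z-disc that is related to Xirp1, showed the same arrangement. It lies at chr2:67446002-67526614 on the plus strand and shares exon positions with Gm13601 on the other strand, whose reads could not be told apart if strand was not used in counting. The same limit holds for 8 other members, Ttn, Myom1, Unc45b, Tmod1, Cmya5, Des, Vcl and Nrap, and Tnni3 shares an exon position with Dnaaf3 on its own strand. Xirp2 stood at 30.3, 27.0 and 31.7 CPM in sham control and at 17.5, 93.5 and 119.8 CPM in TAC control. Again TAC control 1 lay below the whole sham control range while the other 2 lay above it. The fitted log2 fold change was 1.38 ± 0.52 (adjusted p = 0.558, edgeR), on means of 76.9 ± 53.1 against 29.7 ± 2.38 CPM (SD, n = 3). Without TAC control 3 the log2 fold changes were 0.97 for Ankrd1 and 0.91 for Xirp2, and without TAC control 1 they were 2.08 and 1.85.

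Pdlim5, a Z-disc protein that tethers protein kinases, followed the same order of libraries, at 82.1, 220.1 and 367 CPM in TAC control, while sham control held 87.9 to 136 CPM. Its log2 fold change of 0.98 ± 0.53 did not pass (adjusted p = 0.667, edgeR). Other values moved with these 3 genes. TAC control 1 held 7.99 CPM of the inducible chaperone Hspa1a, against 156 and 157 CPM in TAC control 2 and 3 and 4.27 to 5.89 CPM in sham control. Fibroblast markers summed to 560, 1390 and 1580 CPM in TAC control 1 to 3, against 523 to 690 CPM in sham control, with all 8 fold changes positive. Tcf21 alone among them was highest in TAC control 1 (20, 14.1 and 10.6 CPM in TAC control 1 to 3). The clock-controlled gene Dbp stood at 13.1, 184 and 180 CPM in TAC control 1 to 3 and at 112 to 187 CPM in sham control. Epicardial markers as a sum ran the other way, at 34.6, 5.89 and 4.32 CPM in TAC control 1 to 3. They summed to at most 2.73 CPM in sham control. Among them Wt1 did not run that way (2.18, 2.45 and 2.97 CPM in TAC control 1 to 3), nor did Lrrn4 (0, 0.107 and 0 CPM). The part of all these values in the results was not tested.

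In the other direction Palld, an actin-bundling partner of α-actinin (chr8:61511433-61902690, minus strand), stood at 17.1, 33.2 and 19.0 CPM in sham control and at 11.9, 9.83 and 7.91 CPM in TAC control. Every TAC control library lay under every sham control library. The means of 9.88 ± 2.00 and 23.1 ± 8.82 CPM (SD, n = 3) gave a log2 fold change of −1.23 ± 0.51 (adjusted p = 0.588, edgeR). Smooth muscle cells also express Palld, and their markers summed to 443 to 510 CPM in TAC control and 375 to 543 CPM in sham control. Obsl1, which links titin and myomesin at the M-band, stood at 66.6 to 80.7 CPM in sham control and at 35.7 to 53.7 CPM in TAC control, with a log2 fold change of −0.72 ± 0.34 (adjusted p = 0.638, edgeR) and no overlap between the groups.

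Counted over the list, 0 of 34 genes passed the adjusted threshold of 0.05, where 0% of all genes tested did. At an unadjusted p under 0.05 there were 3, Ankrd1 and Xirp2 higher and Palld lower, 8.82% against a background of 7.93% of all genes. The groups did not overlap for 8 of 34, against 17.4% of all genes. Of these, 2 were higher in TAC control, Tnnc1 and Csrp3 (background 7.54%), and 6 were lower, Mybpc3, Obsl1, Unc45b, Ldb3, Mypn and Palld (background 9.82%). The median log2 fold change over the 34 was −0.14, against 0.10 over all genes, and 12 were positive and 22 negative. With voom the median was 0.05 and 18 were positive, and without TAC control 1 the median was −0.08 with 14 positive, so the balance of directions depended on the setting. By structure, 4 of 6 thick filament, titin and M-band genes were negative (median −0.61), 5 of 8 thin filament genes (−0.07), 7 of 11 Z-disc genes (−0.21), 4 of 5 genes of desmin, costamere and intercalated disc (−0.23) and 2 of 4 stretch-response genes (median 0.25).

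Among the remaining genes no difference passed the test. Mybpc3 stood at 3275, 3379 and 3288 CPM in sham control and at 2063, 2600.2 and 1943 CPM in TAC control, lower in every TAC control library, with a log2 fold change of −0.59 ± 0.33. Unc45b, at 176 to 243 against 117 to 165 CPM, gave −0.64 ± 0.33. Csrp3, a mechanosensor whose loss causes dilated hearts in mice, stood at 1382 to 1847 CPM in sham control and 2055 to 2529.9 CPM in TAC control (0.43 ± 0.36). Tnnc1, at 3269 to 4118 against 4305 to 6994 CPM, gave 0.54 ± 0.38. None of these 4 passed (adjusted p of 0.663 or higher, edgeR).

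Ttn did not differ in mean, at 212, 261 and 239 CPM in sham control and 94.7, 286 and 376 CPM in TAC control (0.09 ± 0.51, adjusted p = 0.969, edgeR). Its TAC control libraries lay on either side of the sham control range, and the sign turned to −0.32 without TAC control 3 and to −0.33 with a smooth term for gene length. Tnni3 stood at 8236 to 10284 against 7061 to 11325 CPM (−0.02 ± 0.36). The stretch-linked LIM proteins Fhl1 and Fhl2 gave −0.01 ± 0.28 and −0.29 ± 0.28, with 60.2 to 101 against 61.7 to 86.7 CPM and 1298 to 1714 against 1126 to 1440 CPM. The fitted sign of Fhl1 depended on the setting and its value stayed near 0. Tnni1 gave −0.93 ± 0.73 on 10 to 15 reads per sham control library and 2 to 11 per TAC control library.

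The other members are given by structure. In the thick filament and M-band group Myom1 gave 0.06 ± 0.42 (298 to 445 CPM in sham control, 208 to 481 CPM in TAC control) and Myom2 −0.67 ± 0.58 (414 to 742 against 206 to 489 CPM). In the thin filament the tropomyosin Tpm1 gave −0.11 ± 0.34 and the troponin T Tnnt2 −0.13 ± 0.30, the largest positive value being that of Nebl, 0.61 ± 0.37, on 13.0 to 16.8 against 14.8 to 31.3 CPM. Lmod2, which lengthens thin filaments, and Tmod1, which caps them, gave 0.35 ± 0.47 and −0.39 ± 0.44. TAC control 1 held the lowest level of both genes in its group, 62.5 CPM of Lmod2 and 70.2 CPM of Tmod1.

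In the Z-disc group Myoz2 stood at 1239.8, 992 and 956 CPM in sham control and at 1017, 1773 and 1926 CPM in TAC control, giving 0.56 ± 0.32. TAC control 1 lay inside the sham control range and the other 2 above it. Mypn (−0.58 ± 0.42) and Ldb3 (−0.15 ± 0.26) were lower in every TAC control library. The cross-linker Actn2 gave −0.22 ± 0.35, the actin cross-linker Flnc −0.21 ± 0.37, Tcap −0.26 ± 0.42, Synpo2l −0.28 ± 0.37 and Cmya5, a large desmin-binding protein, 0.12 ± 0.28. Beside the Z-disc, Des gave −0.12 ± 0.31, Nrap −0.23 ± 0.45, Xirp1 −0.28 ± 0.55 and Vcl, which ties actin to the membrane at costameres, −0.43 ± 0.46. Smpx gave 0.52 ± 0.37 on 248 to 359 against 345 to 509 CPM. None of these had an unadjusted p under 0.05.

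A fit without the 4 libraries apart, added once they were known, had 2 mice in each group, and there edgeR called 3 of 34 genes where it called 3.21% of 15069 genes. It leaves out TAC control 1, the TAC control library that lay below every sham control library for Ankrd1 and Xirp2. Ankrd1 was higher at 2.16 ± 0.30 (adjusted p = 0.0117), Xirp2 was higher at 1.87 ± 0.32 (adjusted p = 0.0203) and Palld was lower at −1.52 ± 0.32 (adjusted p = 0.0336). limma voom with weights per library called 7 of 34 where it called 22.0% of all genes. It called Ankrd1, Xirp2, Pdlim5 and Myoz2 higher and Palld, Obsl1 and Tnni1 lower. DESeq2 called 0 of the 34 and 83 genes in all.

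**Figure D4:**
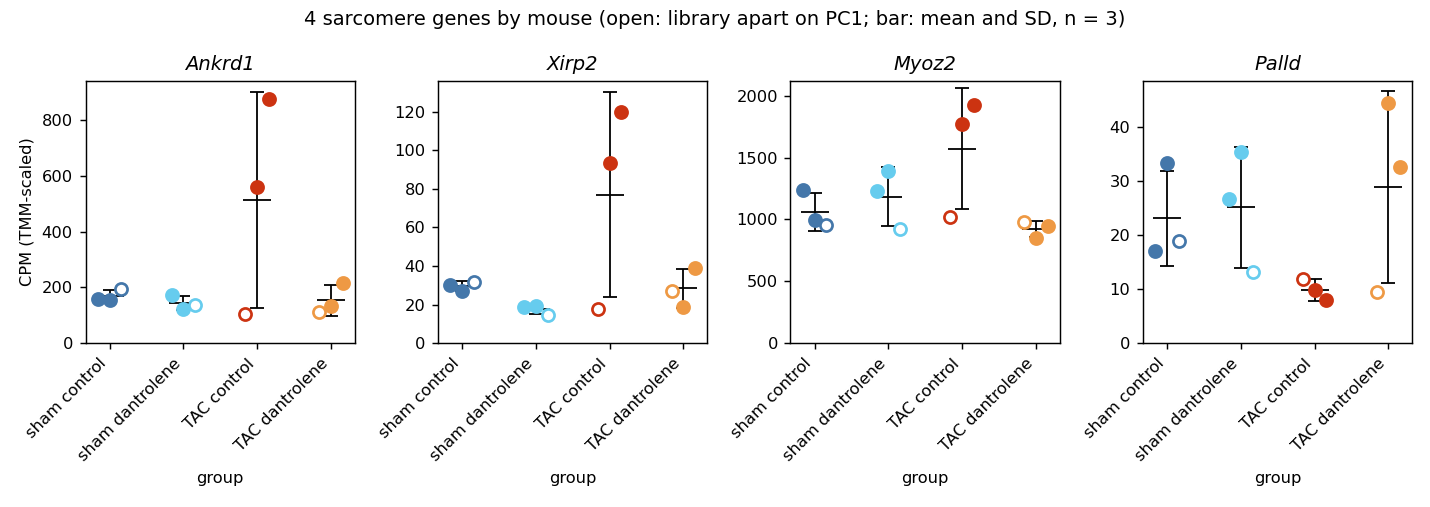
CPM of 4 genes by mouse (points; open points are the libraries apart on the first component) with the group mean and SD (n = 3). TAC control 2 and 3 hold 560.0 and 876 CPM of Ankrd1 where TAC control 1 holds 104, and Palld reaches at most 11.9 CPM in a TAC control library.

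What the drug changed under load was asked by comparing TAC dantrolene with TAC control, which uses the same TAC control libraries. Ankrd1 stood at 111, 135 and 216 CPM in TAC dantrolene 1 to 3, beside the 104, 560.0 and 876 CPM of TAC control given above. All 3 drug libraries lay above TAC control 1 and below TAC control 2 and 3, so the groups overlapped. The means of 154 ± 55.1 and 513 ± 388 CPM (SD, n = 3) gave a log2 fold change of −1.74 ± 0.56 (adjusted p = 1.00, edgeR). Xirp2 stood at 27.2, 19.0 and 39.1 CPM, against 17.5, 93.5 and 119.8 CPM, and gave −1.44 ± 0.52 (adjusted p = 1.00, edgeR). Without TAC control 3 the differences were −1.11 for Ankrd1 and −0.97 for Xirp2. In TAC dantrolene 3, which had the highest Ankrd1 and Xirp2 of its group, Hspa1a stood at 130 CPM, against 10.5 and 14.7 CPM in the other 2, and Dbp at 139 CPM, against 31.6 and 17.5 CPM. Fibroblast markers summed to 557 to 817 CPM in TAC dantrolene, and 7 of 8 were negative against TAC control (median −0.76), 2 of them at an unadjusted p under 0.05. The part of these in the result was not tested.

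Myoz2 (chr3:123006206-123035015, minus strand) was the member whose groups did not overlap. TAC dantrolene held 977, 854 and 948 CPM where TAC control held 1017, 1773 and 1926 CPM, so the closest pair, TAC dantrolene 1 and TAC control 1, were both apart libraries. The log2 fold change was −0.76 ± 0.32 (adjusted p = 1.00, edgeR), and −0.59 without TAC control 3. In sham control Myoz2 had 956 to 1239.8 CPM. Calsarcin-1, the product of Myoz2, tethers calcineurin to α-actinin.

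Palld stood at 9.56, 44.4 and 32.6 CPM in TAC dantrolene, against 7.91 to 11.9 CPM in TAC control. TAC dantrolene 2 and 3 lay above every TAC control library and TAC dantrolene 1, the apart library, inside their range. The log2 fold change was 1.55 ± 0.51 (adjusted p = 1.00, edgeR), and smooth muscle markers summed to 521 to 570 CPM in TAC dantrolene. Obsl1 stood at 37.3, 99.9 and 68.1 CPM against 53.7, 48.1 and 35.7 CPM, with 0.58 ± 0.34. The difference of Obsl1 was 0.20 without TAC dantrolene 2.

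Over the list 0 of 34 genes were called, where 0% of all genes were. At an unadjusted p under 0.05 there were 4, Ankrd1, Xirp2 and Myoz2 lower and Palld higher, 11.8% against a background of 3.25%. The groups did not overlap for 1 gene, Myoz2, against 4.76% of all genes (2.08% of all genes in that direction). The median log2 fold change was 0.14, against 0.02 over all genes, with 21 positive and 13 negative. The median was 0.04 without TAC dantrolene 3, 0.05 without TAC dantrolene 2, 0.09 without TAC control 1 and 0.07 with voom, and reached 0.23 without TAC control 3 and 0.22 without TAC dantrolene 1. Of 6 thick filament, titin and M-band genes 5 were positive (median 0.53, and 0.17 without TAC dantrolene 2), with 0.51 ± 0.33 for Mybpc3, 0.55 ± 0.33 for Unc45b and 0.62 ± 0.58 for Myom2. Thin filament genes had a median of 0.13, Z-disc genes 0.00, the desmin and intercalated disc genes 0.15 and stretch-response genes −0.03.

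Vcl gave the next largest positive value after Palld, 0.76 ± 0.46, on 28.3, 77.6 and 78.0 CPM in TAC dantrolene against 18.5, 40.9 and 49.0 CPM in TAC control. In both groups the apart library was the lowest, and the groups overlapped. Mypn gave 0.71 ± 0.42, Xirp1 0.46 ± 0.55 and Tmod1 0.45 ± 0.44. Flnc, Myom1, Tpm1, Tnnt2, Actn2, Des, Ldb3, Nrap and Lmod2 had fitted values between 0.12 and 0.32. Negative values outside those already named were small, −0.34 ± 0.53 for Pdlim5, −0.24 ± 0.38 for Tnnc1, −0.18 ± 0.42 for Tcap, −0.16 ± 0.37 for Smpx, −0.09 ± 0.36 for Nebl and −0.03 ± 0.37 for Synpo2l. Cmya5 gave 0.00 ± 0.28.

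The abundant proteins of the contractile apparatus gave small fitted differences with wide errors. Tnni3 gave 0.14 ± 0.36 (14125, 8738 and 6790.0 CPM in TAC dantrolene), Ttn −0.17 ± 0.51 (147, 157 and 369 CPM) and Csrp3 −0.38 ± 0.36 (2706, 1116 and 1371 CPM). In each of these the apart library TAC dantrolene 1 stood at 1 end of its group. Fhl1 gave 0.10 ± 0.28 and Fhl2 0.28 ± 0.28. Tnni1 gave −0.24 ± 0.76 on 4 to 9 reads per TAC dantrolene library. None of these 6 passed (adjusted p = 1.00, edgeR). The signs of Ttn, Tnni3, Fhl1 and Tnni1 turned under at least 1 alternative each.

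Without the 4 libraries apart, edgeR called 5 of 34 genes where it called 3.17% of 15069 genes. That fit leaves out TAC control 1, the lowest of its group for Ankrd1, Xirp2 and Myoz2. It also leaves out TAC dantrolene 1, the lowest of its group for Palld and Mypn. Palld was higher at 2.11 ± 0.32 (adjusted p = 0.0189) and Mypn at 1.00 ± 0.24 (adjusted p = 0.0494). Ankrd1 was lower at −2.02 ± 0.30 (adjusted p = 0.0173), Xirp2 at −1.86 ± 0.32 (adjusted p = 0.0237) and Myoz2 at −1.03 ± 0.21 (adjusted p = 0.0346). Voom with library weights called 2 of 34, Ankrd1 and Xirp2, both lower, where it called 0.822% of all genes. DESeq2 called 0 of the 34 and 12 genes in all. With same-numbered mice paired, edgeR called 0 of 34, and 6 had an unadjusted p under 0.05 in place of 4, Unc45b and Vcl being the added ones, while the share of all genes went from 3.25% to 12.2%.

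**Figure D5:**
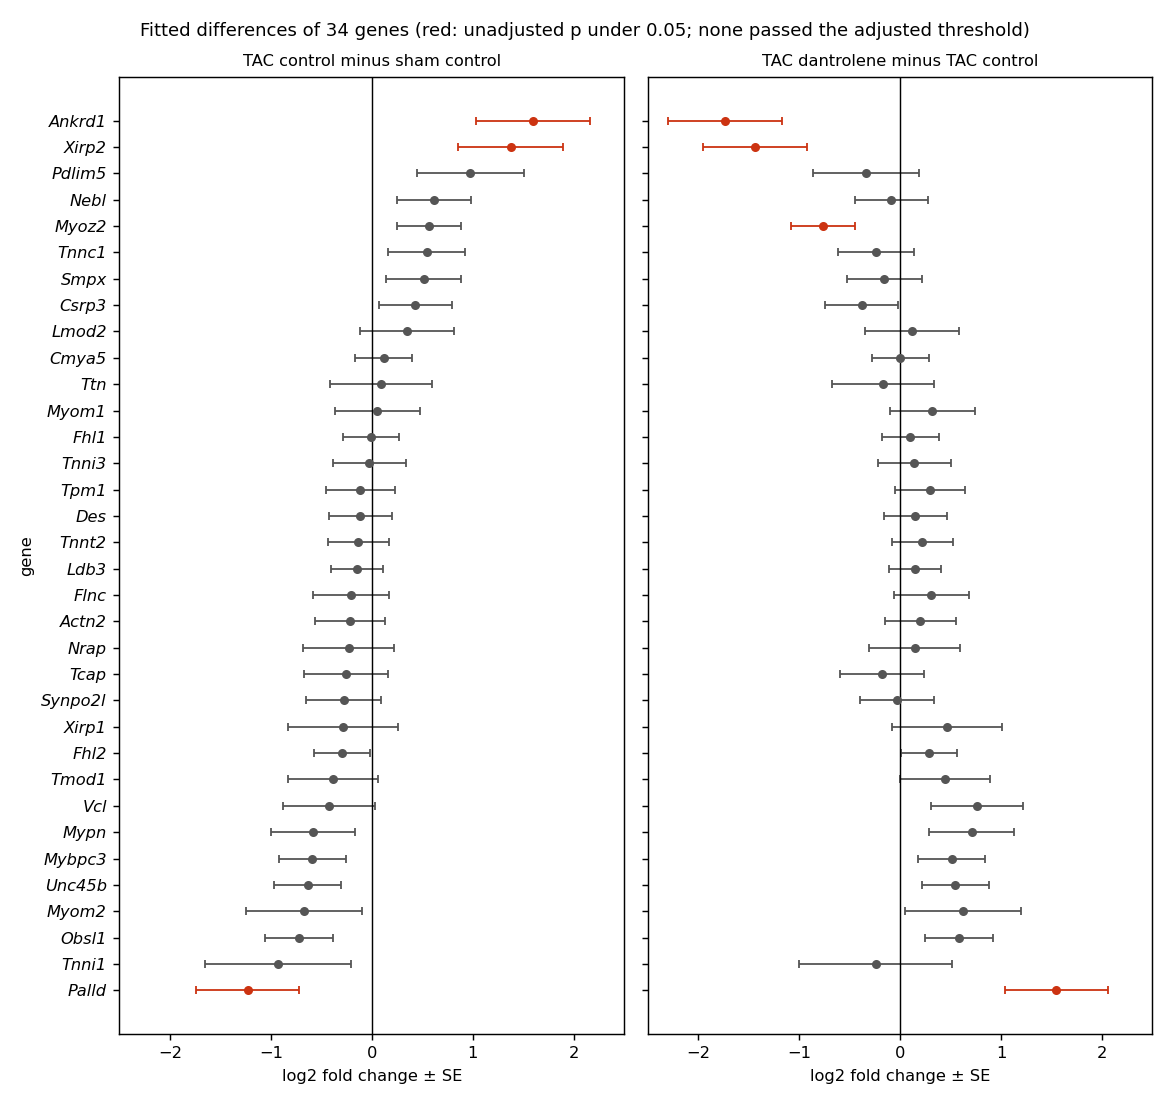
Fitted log2 fold change with its SE for each of 34 genes (rows, ordered by the left panel) for TAC control minus sham control (left) and TAC dantrolene minus TAC control (right), which share the TAC control libraries. Red marks an unadjusted p under 0.05, 3 genes on the left and 4 on the right, and no gene passed the adjusted threshold.

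Sham dantrolene against sham control asked what the drug changed in unloaded hearts. No member had an unadjusted p under 0.05 (0 of 34, background 0.715%), and 0 of 34 were called where 0% of all genes were. The groups did not overlap for 5 genes, all lower with the drug, namely Ttn, Mybpc3, Tnni1, Des and Xirp2, against 7.37% of all genes and 4.38% in that direction. Xirp2 stood at 18.9, 19.4 and 14.8 CPM in sham dantrolene and 27.0 to 31.7 CPM in sham control, and its log2 fold change of −0.74 ± 0.51 did not pass. Ttn stood at 174, 197 and 83.6 CPM against 212 to 261 CPM (−0.65 ± 0.51), the lowest value being that of the apart library. With same-numbered mice paired in edgeR its unadjusted p was under 0.05, in a fit to which the 0.715% above does not apply. The largest positive differences were those of Smpx, at 336 to 418 CPM against 248 to 359 CPM (0.38 ± 0.37), and Tcap (0.35 ± 0.42). Tcap stood at 2217, 2001 and 5091 CPM, and without sham dantrolene 3 its difference was −0.21. Ankrd1 stood at 124 to 173 CPM with the drug and 157 to 193 CPM without it (−0.22 ± 0.55). Tnni1 gave −0.81 ± 0.72 on 4 to 10 reads per library with the drug, Tnni3 −0.04 ± 0.36, Csrp3 0.20 ± 0.36, Fhl1 0.01 ± 0.28 and Fhl2 −0.10 ± 0.28. All 6 thick filament, titin and M-band genes were negative (median −0.30), with −0.34 ± 0.33 for Mybpc3. All adjusted p were 1.00 (edgeR), and 11 of 34 were positive and 23 negative, with a median of −0.13 against 0.02 over all genes. This balance rested on sham dantrolene 3, an apart library: without it 16 were positive and the median was −0.02, and 4 of the 6 thick filament, titin and M-band genes were negative (median −0.11). Without all 4 libraries apart 17 were positive, the median was 0.00 and 0 of 34 had an unadjusted p under 0.05.

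TAC dantrolene against sham dantrolene asked what load changed in treated mice. Nebl, a nebulin-like protein that binds actin at the Z-disc, stood at 24.2, 11.6 and 27.1 CPM in TAC dantrolene and 9.36, 15.2 and 9.96 CPM in sham dantrolene. TAC dantrolene 2 lay inside the sham dantrolene range, and the log2 fold change was 0.86 ± 0.37 (adjusted p = 1.00, edgeR). It was the single member at an unadjusted p under 0.05, 1 of 34 against a background of 1.71%. Of the genes with negative values, Tcap gave −0.78 ± 0.42, and −0.22 without sham dantrolene 3, and Myoz2 gave −0.35 ± 0.32. Myom1 gave 0.59 ± 0.42 on 241, 575 and 557 CPM against 335, 385 and 189 CPM. No member was without overlap (background 4.86%) and 0 were called, where 0% of all genes were. Of the 34, 27 were positive and 7 negative (median 0.19, against 0.08 over all genes). Without sham dantrolene 3 the median was 0.05 and 22 were positive. Without the 4 libraries apart it was 0.17 with 23 positive, and 5 had an unadjusted p under 0.05, where 9.93% of all genes did. Ankrd1 and Xirp2 gave 0.09 ± 0.55 and 0.68 ± 0.51, beside 1.60 and 1.38 in mice without the drug, and whether these differ is the interaction given next. Ttn gave 0.57 ± 0.51, Tnni1 −0.36 ± 0.75, Tnni3 0.16 ± 0.36, Csrp3 −0.15 ± 0.36, Fhl1 0.08 ± 0.28 and Fhl2 0.09 ± 0.28.

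The interaction asked whether the drug difference itself differed between TAC and sham. The smallest p-values were those of Myoz2 (−0.92 ± 0.45), Palld (1.43 ± 0.71), Ankrd1 (−1.51 ± 0.78) and Obsl1 (0.90 ± 0.48), all with adjusted p = 1.00 (edgeR). No member was called, where 0% of all genes were, and 0 of 34 had an unadjusted p under 0.05, where 2.82% of all genes did. All 6 thick filament, titin and M-band genes were positive (median 0.78, range 0.48 to 0.90), and over the 34 genes 25 were positive and 9 negative (median 0.33, against −0.01 over all genes). A drug difference that depended on surgery was not detectable for these genes with 3 mice per group. Among the other genes followed throughout, Xirp2 gave −0.69 ± 0.72, Csrp3 −0.58 ± 0.51, Tnni1 0.57 ± 1.05, Ttn 0.48 ± 0.71, Fhl2 0.38 ± 0.40, Tnni3 0.18 ± 0.51 and Fhl1 0.09 ± 0.39. With same-numbered mice paired, Vcl, Unc45b, Mybpc3 and Myoz2, 4 of 34, had an unadjusted p under 0.05, where 11.6% of all genes did, and 0 were called. Without the 4 libraries apart the median over the 34 was 0.21 with 22 positive, 11 had an unadjusted p under 0.05 where 13.7% of all genes did, and 0 were called. The median was 0.05 with voom, where 20 were positive, and 0.19 without sham dantrolene 3.

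Ratios of related genes within a library do not depend on the library total. Myom2, the M-band protein of mature muscle, stood at 1.99, 1.86 and 1.55 times Myom1 in sham control and at 1.11, 1.04 and 1.14 times Myom1 in TAC control, in FPKM. All TAC control libraries lay under all sham control libraries, the apart ones included. The difference of the mean log2 ratios, 0.13 ± 0.07 against 0.84 ± 0.19 (SD, n = 3), was −0.71 with p = 0.1 in a two-sided exact permutation test, the smallest p that 3 against 3 mice allow, and 0.6 adjusted over 12 tests of 3 ratios. In sham dantrolene the ratio was 2.55, 1.65 and 1.45 and in TAC dantrolene 0.732, 1.70 and 1.26. These groups overlapped. The ratio of fetal to adult troponin I, Tnni1 to Tnni3, differed by −1.38 (log2) between TAC control and sham control (exact permutation p = 0.3), and Fhl1 to Fhl2 by 0.30 (exact permutation p = 0.5).

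Other genes of the sarcomere were taken from a list of 43, for which 39 entries of the table were tested, Ankrd23 having 2 identifiers. Of these 0 were called, and 7 had an unadjusted p under 0.05 in TAC control against sham control, 5 higher and 2 lower, where 7.93% of all genes did. Myotilin Myot, a Z-disc partner of α-actinin and filamin, gave 1.36 ± 0.41 (25.2 ± 10.8 against 9.80 ± 3.47 CPM, SD, n = 3). Cytoskeletal tropomyosin Tpm4 gave 0.79 ± 0.24, and tropomodulin Tmod3 1.27 ± 0.46. The ankyrin repeat protein Ankrd2, a relative of Ankrd1, gave 1.32 ± 0.48 at 1.14 ± 0.34 against 0.449 ± 0.0598 CPM. In TAC dantrolene against TAC control 3 of 39 had an unadjusted p under 0.05, where 3.25% of all genes did. The formin Fhod3, which organises sarcomeric actin, gave 1.13 ± 0.36, with all drug libraries above all TAC control libraries, and Ankrd2 −1.20 ± 0.48.

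Among 19 genes of sarcomere protein quality control, 4 had an unadjusted p under 0.05 in TAC control against sham control, where 7.93% of all genes did, and 0 were called. In TAC dantrolene against TAC control 5 of 19 did, 2 higher and 3 lower, against 3.25% of all genes. The ubiquitin ligase Trim63 (MuRF1), which marks sarcomere proteins for degradation, gave −1.37 ± 0.31 (113.7 ± 20.7 against 293 ± 109 CPM, SD, n = 3, adjusted p = 0.364, edgeR), and the myosin methyltransferase and chaperone partner Smyd1 −0.69 ± 0.27. The chaperones Hsp90aa1 and Hspb1 gave 2.14 ± 0.57 and 0.79 ± 0.33. In TAC dantrolene against TAC control Trim63 gave 0.67 ± 0.31, Smyd1 0.34 ± 0.27, Hsp90aa1 −1.36 ± 0.56, Hspb1 −0.72 ± 0.33 and the small heat shock protein Cryab −0.62 ± 0.28, all with adjusted p = 1.00 (edgeR). Trim55, the other gene higher at an unadjusted p under 0.05, gave 1.02 ± 0.43 there. It gave −0.93 ± 0.43 in TAC control against sham control and passed the adjusted threshold in neither. In sham dantrolene against sham control Trim63 gave −0.85 ± 0.31, on 163.1 ± 21.1 against 293 ± 109 CPM (SD, n = 3) with no overlap, and its interaction was 1.51 ± 0.43, both with adjusted p = 1.00 (edgeR). Of 15 tested transcription factors of muscle genes, 10 were negative in TAC control against sham control, 4 of them at an unadjusted p under 0.05 (7.93% of all genes), and 6406 of all 14965 genes were negative. Tbx5 gave −1.22 ± 0.37, Gata4 −0.67 ± 0.28 and Mef2d −0.70 ± 0.30. In TAC dantrolene against TAC control 14 of 15 were positive (median 0.39), where 7746 of 14965 genes were, and 1, Tbx5 at 0.81 ± 0.37, had an unadjusted p under 0.05 (3.25% of all genes).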

How the data were processed

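The deposited values are whole-number counts of reads per gene and FPKM per gene, in which the authors divided by length and library total. Libraries were poly(A)-selected, directional and sequenced as 150 nt paired ends, per the labels' protocols. Tools named in the submitters' processing notes are TopHat2, bcl2fastq and edgeR, with the build GRCm38. For the counting tool, the annotation and the strand setting, the sources used here give no name.

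Counts were fitted with edgeR 4.0.16 in R 4.3.3 (TMM, filterByExpr with a minimum count of 10 and total of 15, robust quasi-likelihood, 4 group means, 8 residual degrees of freedom), with Benjamini-Hochberg adjustment over 14965 genes and a threshold of 0.05. SDs come from 3 mice per group. SEs come from the fit of all 12 libraries in the main setting, so they also carry the spread of groups outside the comparison. Alternatives used limma 3.58.1, DESeq2 1.42.0, other normalization, filters, a smooth length term (lowess span 0.3) and single libraries left out. The scripts were tested on simulated counts. Same-numbered mice deviated together across drug groups (correlations 0.465, 0.366 and 0.672 in sham, 0.556, 0.300 and 0.613 in TAC), so the drug comparisons were also paired. Differently numbered pairs without an apart library were positive too (0.375 and 0.305 in sham, 0.093 and 0.221 in TAC). Those with an apart library were negative, and the apart library has the same number in both drug groups of an arm.

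The 34 genes and all lists were chosen with earlier results of these data known. In each comparison members with an unadjusted p under 0.05, or the 2 of smallest p in a direction with fewer, were given in full. Ttn, Tnni1, Tnni3, Ankrd1, Csrp3, Fhl1, Fhl2 and Xirp2 were always described. Each other list gave up to 4 genes by smallest p in TAC control against sham control or in TAC dantrolene against TAC control. The fits without, and with a term for, the 4 libraries apart were added after seeing the data. No 2 libraries of the same group were alike within sampling noise (chi-square per gene at least 31.7). Libraries of different groups were not compared in this way.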

Additional observations from a re-analysis of the deposited data

How the results depend on the processing

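The count of members called was 0 in every comparison except under these settings. Limma voom with library weights called 7 in TAC control against sham control and 2 in TAC dantrolene against TAC control. Leaving out the 4 libraries apart called 3 and 5, with 2 mice per group. Leaving out 1 library called 0 throughout, and 0 to 8 members had an unadjusted p under 0.05 in TAC control against sham control (0 without TAC control 3, with 4.28% of all genes, and 8 without TAC control 1, with 15.8%) and 1 to 12 in TAC dantrolene against TAC control (1 without TAC control 3 or without TAC dantrolene 2, with 2.84% and 1.86% of all genes, and 12 without TAC dantrolene 1, with 14.9%). Surgery groups share only a replicate number (correlations −0.294, 0.283 and −0.304, and −0.377, 0.27 and −0.313). The replicate block called 0 members in all 5 comparisons. Signs were tallied over the members given in full in each comparison. The 8 always described were added to this tally only for TAC control against sham control and TAC dantrolene against TAC control. In it 673 alternative log2 fold changes kept their sign and side of the threshold, 14 passed it and 34 turned sign. In TAC control against sham control Fhl1 turned to 0 with RLE normalization, 0.001 with DESeq2, 0.098 with voom, 0.015 with the replicate block, 0.044 with the length term and 0.063 with length term and replicate block. Ttn turned to −0.115 with the replicate block, −0.328 with the length term, −0.386 with both and −0.128 with a term for the libraries apart. In TAC dantrolene against TAC control Tnni1 turned to 0.586 with voom, 0.063 with the replicate block, 0.015 with the length term, 0.192 with both and 0.909 without the 4 libraries apart. Tnni3 turned there to −0.021 with voom and −0.009 without the 4 libraries apart, and Tcap in sham dantrolene against sham control to −0.011 with voom.

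Leaving out 1 library gave, in TAC control against sham control, −0.316 to 0.482 for Ttn (lowest without TAC control 3), −0.226 to 0.119 for Tnni3 and −0.168 to 0.229 for Fhl1. In TAC dantrolene against TAC control it gave −0.732 to 0.236 for Ttn, −0.712 to 1.016 for Tnni1, −0.232 to 0.351 for Tnni3 and −0.034 to 0.271 for Fhl1. Tcap ran from −0.212 to 0.578 in sham dantrolene against sham control. The log2 ratio difference of Tnni1 to Tnni3 turned with 1 FPKM added to both, to 0.102 in TAC control against sham control and −0.233 in TAC dantrolene against TAC control. Tnni1 had at most 0.3 FPKM, so the added 1 FPKM outweighed it and both values mostly follow Tnni3. With 1 library left out, the difference in TAC dantrolene against TAC control ran from −0.42 to 0.796. Fhl1 to Fhl2 ran from −0.412 to 0.091 in TAC dantrolene against TAC control, −0.044 to 0.251 in sham dantrolene against sham control and −0.244 to 0.259 in TAC dantrolene against sham dantrolene. Myom2 to Myom1 ran from −0.188 to 0.419 in TAC dantrolene against TAC control and −0.212 to 0.193 in sham dantrolene against sham control. The cause of the other turns was not tested. Depth limits Tnni1 alone among the 34 genes, with at most 15 reads in a library.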
